A study of Mus musculus with 4 samples.

Results

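The SMAD proteins and the genes that feed back on them were examined in mouse primary myotubes treated with EDA-A2, the ligand of the ectodysplasin A2 receptor EDA2R. The set was given as 10 genes by name and holds the activating SMADs Smad1, Smad2, Smad3, Smad4 and Smad5, the inhibitory SMADs Smad6 and Smad7, the corepressors Ski and Skil, and the ubiquitin ligase Smurf1. All 10 were found by symbol, each with 1 Ensembl identifier, among the 53647 genes in the tables. The myotubes were grown from myoblasts of the limb muscles of WT pups aged 2 to 3 days, whose strain is not given in the sources used here. Myotubes of both conditions were harvested 72 h after differentiation began. One condition had received EDA-A2 at 250 ng/ml for 24 h and the other is labelled Control, with no vehicle named. There were 2 libraries per condition, and the labels do not say whether they came from separate cultures, so p-values measure only the spread between these libraries.

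SMADs carry signals of the transforming growth factor-beta (TGFβ) family from the receptors at the cell surface into the nucleus. SMAD2 and SMAD3 are phosphorylated by receptors for TGFβ, activin and myostatin, and SMAD1 and SMAD5 by those for bone morphogenetic proteins (BMPs). Both pairs then bind SMAD4 and regulate genes together with it. SMAD6 and SMAD7 bind the receptors and block this step, SMURF1 marks SMADs and receptors for degradation and is brought to the receptors by SMAD7, and SKI and SKIL (also called SnoN) hold SMAD complexes in a repressed state on DNA. Smad7 and Skil are classical targets of the pathway they restrain, and Smad6 is a target of BMP signalling. In muscle, the SMAD2/3 branch is known for limiting muscle mass and the SMAD1/5 branch for sustaining it.

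Counts on genes summed to between 29444155 and 29746863 per library. Values below are counts divided by each library's scaling factor (normalized counts), and 15173 genes had enough counts to be tested, all 10 members among them. A gene is called where edgeR's quasi-likelihood test gives an adjusted p-value under 0.05 over all genes tested. By that rule 694 genes were called, which is 4.57% of those tested, with 2.45% higher and 2.13% lower after EDA-A2, so that 53.5% of the called genes were higher. With scaling to total counts 71.4% of the called genes were higher (485 against 194). Nfkbie, an inhibitor of NFκB and a gene that NFκB induces, had a log2 fold change of 3.15, and Nfkb2 and Nfkbia had 1.89 and 1.43. All 3 were called. Eda2r, the receptor itself, had 7024 and 7685 normalized counts in the controls and 8732 and 9951 with EDA-A2, and was also called higher. Fewer cells of a type and less RNA per cell cannot be told apart in bulk RNA.

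Of the 10 genes, 1 was called, and it was Smad7. It rose after EDA-A2, to 1.32 times its control level, while its relative Smad6 and the 5 activating SMADs did not pass the test. A call was made for 1 of 10 members and for 4.57% of all genes tested. Both EDA-A2 libraries lay above both controls for 5 of the 10 genes (Smad7, Skil, Smurf1, Smad1 and Smad3), and the same holds for 22.8% of all genes tested. None of the 10 had both EDA-A2 libraries below both controls, which holds for 22.2% of all genes, and at 5 of 10 the share without overlap is near the 45.0% among all genes. The median log2 fold change of the 10 was 0.05, against -0.00 over all genes tested.

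**Figure D1:**
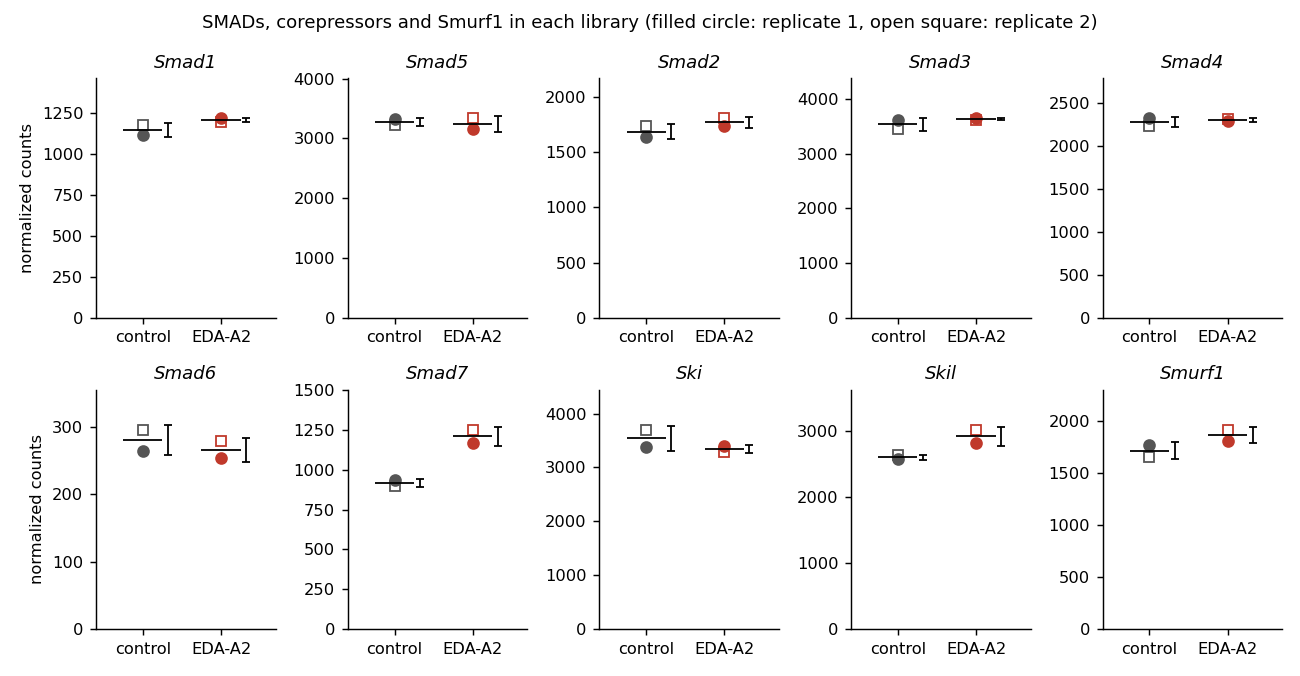
Normalized counts (vertical axes, from 0) of each gene in the 2 control and 2 EDA-A2 libraries. Points are libraries, horizontal lines are means and bars are SD over the 2 libraries. Smad7 is at 899 to 934 in the controls and at 1168 to 1252 after EDA-A2, with no overlap, while for Smad6 the conditions overlap.

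Smad7 (ENSMUSG00000025880, chromosome 18 from 75500374 to 75529006 of GRCm39, plus strand) encodes the inhibitory SMAD that acts on both branches. Its level was 934 normalized counts in control library 1, 899 in control library 2, 1168 in EDA-A2 library 1 and 1252 in EDA-A2 library 2. Both treated libraries were above both controls, and the gap between the conditions was wider than the gap within either. The mean went from 917 ± 24.8 to 1210 ± 59.2 (SD, n = 2 each). The log2 fold change of 0.40 had a standard error of 0.08, a 95% interval from 0.23 to 0.58 and an adjusted p of 0.00977 (edgeR, quasi-likelihood F test, Benjamini-Hochberg). This is 31.98% more, with an interval from 16.9% to 49.0%. The call did not hold with every gene of at least 1 count kept (log2 fold change 0.40, adjusted p = 0.139 by edgeR), nor without control replicate 1 (0.43, adjusted p = 0.288), control replicate 2 (0.37, 0.223) or EDA-A2 replicate 2 (0.35, 0.168). It held without EDA-A2 replicate 1 (0.45, adjusted p = 0.0212 by edgeR). Leaving out either control left no gene of the whole table called by edgeR, although the unadjusted p-value was under 0.05 for 2179 genes without control replicate 1 and for 2448 without control replicate 2.

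Smad6 (ENSMUSG00000036867, chromosome 9 from 63860341 to 63929793, minus strand), which acts mainly on the BMP branch, had the lowest level of the 10. The controls held 265 and 296 normalized counts, and the treated libraries 254 and 279. The conditions overlapped, and within each of them the libraries lay further apart than the means of the conditions. The log2 fold change was -0.07, with a 95% interval from -0.35 to 0.20 (adjusted p = 0.866 by edgeR). That interval lies below the estimate for Smad7 and is the widest among the 10 genes. The difference between Smad7 and Smad6 was not tested. In each library, the ratio of Smad7 to Smad6 counts per kilobase of exon was 264% and 227% in the controls and 344% and 335% after EDA-A2, so the treated libraries were both higher.

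The start regions of the 10 genes were searched for short DNA motifs, since both SMADs and NFκB bind DNA by known letters. The window ran from 250 bases before to 50 after the first base of each gene's canonical transcript in GENCODE. The motifs, read on both strands, were the palindrome GTCTAGAC that SMAD3 and SMAD4 bind, the CAGA box CAGACA, the GC-rich motif GGCGCC of SMAD binding, and the NFκB (kappa B) motif. GTCTAGAC and CAGACA share the letters AGAC. Across 21770 protein-coding genes, GTCTAGAC was in 0.266% of windows, CAGACA in 18.9%, GGCGCC in 12.4% and kappa B in 8.97%.

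Among the members, the palindrome was found in the window of Smad7 alone, 127 bases before its start, and Smad7 held none of the other motifs. CAGACA was in 3 members (Skil, Smad4 and Smurf1), GGCGCC in 4 (Skil, Smad2, Smad4 and Smad5) and kappa B in 2 (Smad3 and Smad4). Smad1, Smad6 and Ski held no match. A match is a description of the letters and not a binding site, and a window without one says only that these letters are not in it.

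Next shown are the windows of Skil, with the most CAGACA matches of the 10 and the second highest log2 fold change after Smad7, and of Smad6, the other inhibitory SMAD, with none. They were read from GRCm39 at chr3:31148566-31148865 (plus strand) for Skil and chr9:63929362-63929661 (minus strand) for Smad6. Capitals mark the motif matches. Skil has CAGACA 52 bases before the start and 2 more times after it, once as TGTCTG on the other strand, and GGCGCC 108 bases before the start.
Skil: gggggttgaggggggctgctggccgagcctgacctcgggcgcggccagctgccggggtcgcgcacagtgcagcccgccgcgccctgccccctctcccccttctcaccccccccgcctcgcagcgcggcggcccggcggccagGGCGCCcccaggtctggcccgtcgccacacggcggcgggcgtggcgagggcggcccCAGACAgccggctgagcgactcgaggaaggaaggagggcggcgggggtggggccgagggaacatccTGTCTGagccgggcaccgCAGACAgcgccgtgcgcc
Smad6: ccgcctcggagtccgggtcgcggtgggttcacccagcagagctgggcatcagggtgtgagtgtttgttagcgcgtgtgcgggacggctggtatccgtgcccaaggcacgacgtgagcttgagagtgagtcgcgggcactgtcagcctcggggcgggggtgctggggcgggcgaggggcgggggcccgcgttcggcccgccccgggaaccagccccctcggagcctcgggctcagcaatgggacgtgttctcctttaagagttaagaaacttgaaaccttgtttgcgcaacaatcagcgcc

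The 5 activating SMADs, which carry the signal into the nucleus, had fitted levels that differed from the controls by at most 5.38%. EdgeR called none of them, nor did the DESeq2 Wald test, and 0 of 5 had an unadjusted p-value under 0.05. The adjusted p-values from edgeR lay between 0.737 and 0.964. Their log2 fold changes ran from -0.01 to 0.08, with a median of 0.04, and 4 of the 5 were above 0, against 49.5% of all genes tested. With scaling to total counts all 5 were above 0 and the median was 0.09, and the median of all genes tested was then 0.05.

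In the branch of TGFβ, activin and myostatin, Smad3 (ENSMUSG00000032402, chromosome 9 from 63554049 to 63665476) had 3617 and 3456 normalized counts in the controls and 3647 and 3618 with EDA-A2. One treated library all but equalled the higher control and the other was slightly above it. The fitted difference was 2.71%, with a 95% interval from -6.96% to 13.4%. Smad2 (ENSMUSG00000024563, chromosome 18 from 76374327 to 76445180) had 1640 and 1736 in the controls and 1736 and 1810 after EDA-A2. Its libraries overlapped, with a fitted difference of 5.01% (-5.85% to 17.1%).

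In the BMP branch, Smad1 (ENSMUSG00000031681, chromosome 8 from 80065023 to 80126168) had 1116 and 1179 normalized counts in the controls and 1219 and 1199 after EDA-A2. Both treated libraries were above both controls, but the fitted difference of 5.38% had an interval from -6.19% to 18.4%. Smad5 (ENSMUSG00000021540, chromosome 13 from 56850797 to 56890190) had 3320 and 3225 in the controls and 3152 and 3337 after EDA-A2. The treated libraries lay on either side of the controls, and the fitted difference was -0.850% (-10.4% to 9.69%). Its sign was positive with scaling to total counts, at a log2 fold change of 0.04.

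Smad4 (ENSMUSG00000024515, chromosome 18 from 73769343 to 73836915), the partner that both branches share, had 2320 and 2235 normalized counts in the controls and 2284 and 2315 after EDA-A2. The treated values lay between the controls, with a fitted difference of 0.977% (-8.85% to 11.9%). Across the 5 activating SMADs, no interval reached beyond -10.4% or 18.4%. The interval of Smad7 began at 16.9%, below the upper ends for Smad1 (18.4%) and Smad2 (17.1%), so these intervals overlap. The difference between Smad7 and the activating SMADs was not tested. Smad1 shares 467 exonic bases with Gm64087 on the opposite strand and Smad5 shares 127 with Gm55294 on its own strand in the annotation used here, and neither of these was counted as a gene.

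**Figure D2:**
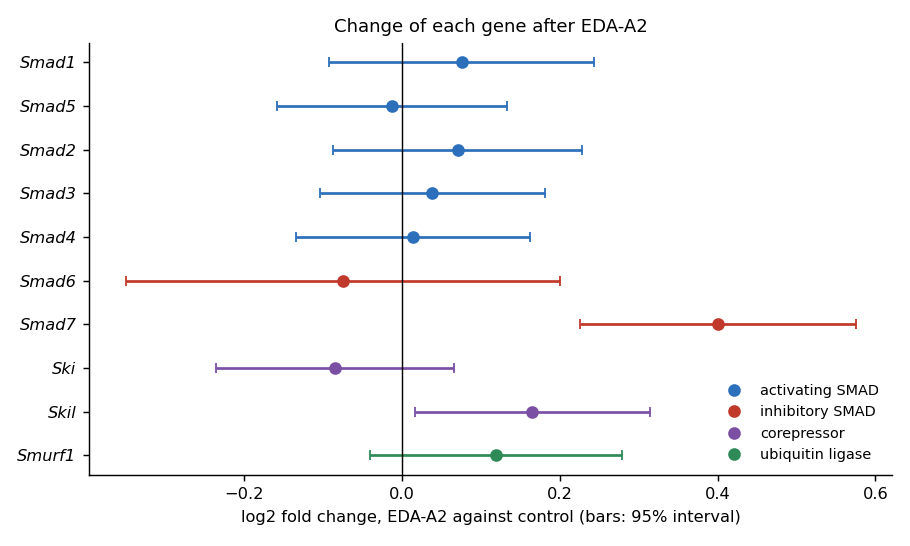
Log2 fold change after EDA-A2 (horizontal axis) of the 10 genes, with 95% intervals as bars and colours for the class of each gene. The interval of Smad7 (0.23 to 0.58) and that of Skil (0.02 to 0.31) lie above 0, and the intervals of the other 8 genes include it.

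To set inhibitory against activating SMADs within each library, the summed level of Smad6 and Smad7 was divided by that of Smad1 to Smad5, with counts per kilobase of exon. Library scaling cancels in this ratio. It was 16.5% and 17.0% in the controls and 19.4% and 20.5% with EDA-A2. Both treated libraries were above both controls, and the means were 16.8% ± 0.335 and 20.0% ± 0.824 (SD, n = 2). On the log2 scale the ratio was 0.25 higher after EDA-A2, with an SD between libraries of 0.03 in the controls and 0.06 after EDA-A2. The percentages depend on the length used. Divided by canonical transcript length, the ratio was 10.2% in each control and 11.6% and 12.2% after EDA-A2, again without overlap. Since the genes were chosen with earlier results known, the ratio is given without a test.

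The inhibitory SMADs were also taken one at a time. With Smad7 alone over the activating SMADs, the ratio was 11.99% and 11.8% in the controls and 15.01% and 15.8% after EDA-A2, a log2 difference of 0.37. With Smad6 alone it was 4.55% and 5.21% in the controls and 4.36% and 4.72% after EDA-A2, a log2 difference of -0.10 with overlapping libraries, smaller than the SD of 0.14 between the controls. Against Smad2 and Smad3 the inhibitory pair was at 35.3% and 36.4% in the controls and 40.5% and 43.6% after EDA-A2. Against Smad1 and Smad5 it was at 49.2% and 49.98%, and then 58.7% and 60.8%. For the balance of the branches themselves, Smad2 and Smad3 together were at 140% and 137% of Smad1 and Smad5 in the controls and at 145% and 139% after EDA-A2, so the conditions overlapped. Divided by canonical transcript length instead, that balance was 202% and 204% in the controls and 207% in each EDA-A2 library, without overlap.

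**Figure D3:**
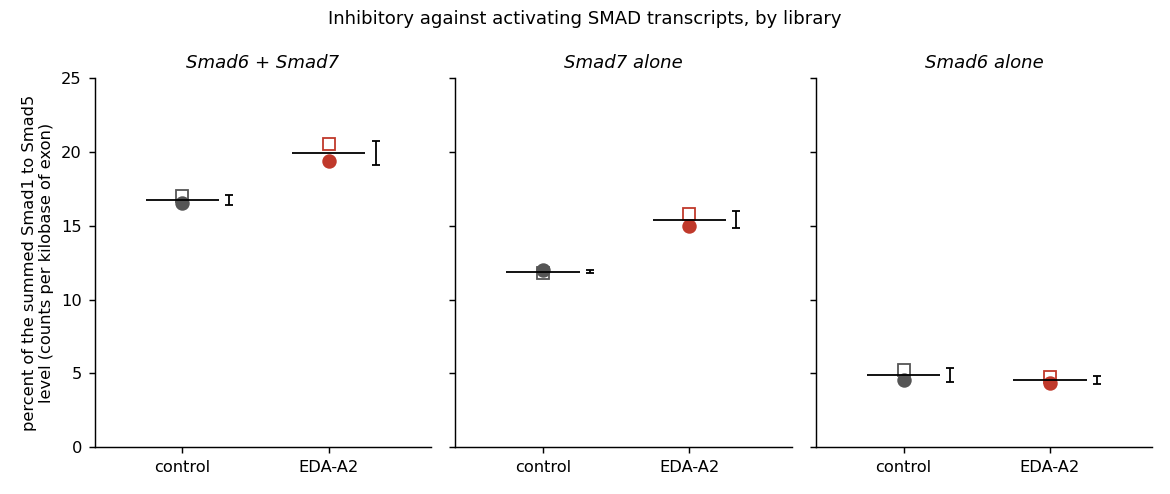
Level of the inhibitory SMADs as a percentage of the summed level of Smad1 to Smad5 (vertical axis, from 0), by library, for Smad6 and Smad7 together, for Smad7 and for Smad6. Levels are counts per kilobase of exon. Points are libraries, lines are means and bars are SD. With Smad7 in the numerator both EDA-A2 libraries exceed both controls, and with Smad6 alone (4.36% to 5.21%) they do not.

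The corepressors and the ligase did not pass the test. Skil (ENSMUSG00000027660, chromosome 3 from 31148816 to 31176740) had 2573 and 2631 normalized counts in the controls and 2815 and 3020 with EDA-A2. Both treated libraries were above both controls, with means of 2602 ± 41.2 and 2918 ± 145. The log2 fold change was 0.17 (standard error 0.07, 95% interval 0.02 to 0.31), and its unadjusted p-value of 0.0323 became 0.253 after adjustment by edgeR over all genes. An unadjusted p-value under 0.05 with a higher level was found for 2 of the 10 members, Smad7 and Skil, and for 7.61% of all genes tested.

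Ski (ENSMUSG00000029050, chromosome 4 from 155238532 to 155307543) had 3381 and 3703 normalized counts in the controls and 3391 and 3286 after EDA-A2. The conditions overlapped, since the lower control lay between the treated libraries, and the log2 fold change was -0.09 (95% interval -0.24 to 0.07, adjusted p = 0.653 by edgeR). Relative to Smad2 and Smad3, the corepressor pair stood at 106% and 116% in the controls and at 107% in each EDA-A2 library. Smurf1 (ENSMUSG00000038780, chromosome 5 from 144813300 to 144902866) had 1775 and 1660 in the controls and 1811 and 1919 after EDA-A2. Its treated libraries were above both controls, by less than the spread within either condition at the nearest pair, and the log2 fold change was 0.12 (95% interval -0.04 to 0.28, adjusted p = 0.511 by edgeR).

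To compare levels between genes, counts were divided by the length of the union of each gene's exons and taken as CPM (counts scaled to the same total in every library), and the mean over the 4 libraries was used. In this order Smad3 came first at 20.9 CPM per kilobase, followed by Ski (19.2), Smad5 (14.3), Smad4 (10.7), Skil (9.23), Smurf1 (8.58), Smad7 (7.57), Smad2 (5.196), Smad1 (4.34) and Smad6 (2.61). The ranges over the 4 libraries overlapped between Smad3 and Ski, between Skil and Smurf1 and between Smurf1 and Smad7, but these ranges span both conditions. Within single libraries, Skil was above Smurf1 and Smurf1 above Smad7 in 4 of 4, and Smad3 was above Ski in 3 of 4, so the order of Smad3 and Ski alone was not the same in every library. Among all genes tested, Smad3 lay at the 89.7th percentile of this level and Smad6 at the 45.1st. Of the summed level of the 7 SMADs by this length, Smad3 made up 31.1% to 32.6% in every library. Smad7 made up 10.3% and 10.1% in the controls and 12.6% and 13.1% after EDA-A2.

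The order and the shares of the summed SMAD level depend on the length used. The canonical transcript of Smad2 has 1645 bases against 11250 in the union of its exons, and for Smad1 the lengths are 3121 and 9168. Divided by the canonical transcript, Smad2 came first, at 35.5 CPM per kilobase, above Smad3 at 22.9, and Smad1 reached 12.8. Smad6 was the lowest by either length, at 3.02 with the canonical transcript, and Smad7 was at 7.98. The length changes no comparison of the same gene between conditions.

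**Figure D4:**
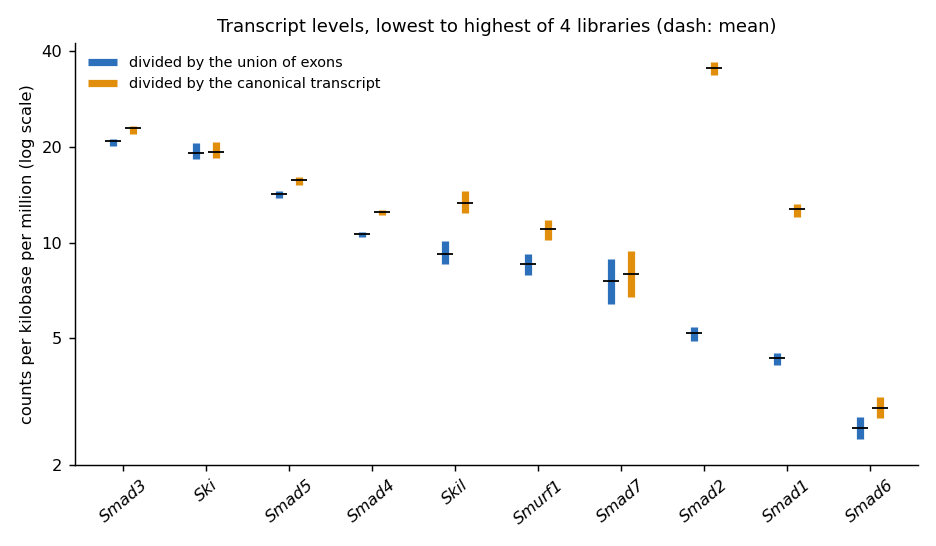
Level of each gene in CPM per kilobase (vertical axis, log scale), with bars from the lowest to the highest of the 4 libraries and dashes at the mean, for 2 measures of gene length. Smad2 moves from 5.196 with the union of exons to 35.5 with the canonical transcript, and Smad6 is lowest with both.

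Of the 10 genes, 5 share a chromosome with another member. Smad4, Smad7 and Smad2 lie on chromosome 18 with gaps of 1.66 Mb and 0.845 Mb between them, and Smad3 and Smad6 lie on chromosome 9 with a gap of 195 kb. Of the neighbours on chromosome 18, Smad7 was called and Smad2 and Smad4 were not, and the difference between them was not tested.

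Other genes of the pathway were taken as 3 lists. The first held 26 regulators and partners of SMADs, such as the ligase Smurf2, the deubiquitinases Usp15 and Usp9x, the phosphatase Ppm1a and the coactivators Ep300 and Crebbp. Of these, 25 were tested (Foxh1 had too few counts), and neither edgeR nor the DESeq2 Wald test called any. At an unadjusted p-value under 0.05 in edgeR, 3 of the 25 were higher and 1 lower, against 7.61% and 8.03% of all genes tested. Their median log2 fold change was 0.05. The smallest p-values belonged to Bambi, Zeb1, Zeb2, Tgif2 and Wwp1. Bambi, a receptor decoy that blocks TGFβ and BMP signalling, had 124 normalized counts in each control library, and 87.2 and 84.5 with EDA-A2. Its treated libraries lay below both controls, with a log2 fold change of -0.53 (95% interval -0.92 to -0.13, adjusted p = 0.145 by edgeR). For the SMAD-binding transcription factors Zeb1, Zeb2 and Tgif2 the log2 fold changes were 0.17, 0.18 and 0.22, and for the ligase Wwp1 it was 0.10. Smurf2, the nearest relative of Smurf1, had a value of -0.01, with an interval from -0.17 to 0.14.

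The second list held 22 genes known as targets of TGFβ or activin through SMAD2/3, and 21 were tested. EdgeR called 1 higher and 1 lower, that is 9.52%, against 4.57% of all genes tested. Of the 21 values 13 were above 0, against 49.5% of all genes tested, with a median of 0.02. At an unadjusted p-value under 0.05, 7 of the 21 were higher and 3 lower, against 7.61% and 8.03% of all genes tested. Junb, an AP-1 transcription factor that many other signals also induce, rose from 2674 and 2221 normalized counts in the controls to 4303 and 3941. The libraries did not overlap, with a log2 fold change of 0.75 and a standard error of 0.09 (adjusted p = 9.24e-05 by edgeR). Tagln, which encodes the actin-binding protein transgelin, fell from 530 and 455 to 353 and 375, with a log2 fold change of -0.43 and a standard error of 0.11 (adjusted p = 0.0412 by edgeR). The call of Tagln was lost under 7 of 11 alternatives, among them scaling to total counts (adjusted p = 0.0839 by edgeR) and the DESeq2 Wald test (0.099), and that of Junb under 3.

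Next in that list were Angptl4, an inhibitor of lipoprotein lipase, and Klf10, an early TGFβ response gene. Angptl4 had 356 and 540.5 normalized counts in the controls and 675 and 621 after EDA-A2, without overlap. The log2 fold changes of Angptl4 and Klf10 were 0.53 (adjusted p = 0.053 by edgeR) and 0.24 (0.135). Both values moved with the control library left out. Angptl4 had 0.26 without control replicate 1 and 0.86 without control replicate 2, and Klf10 had 0.39 and 0.11. With the replicate number as a block both were called by edgeR (adjusted p = 0.00697 and 0.035).

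The third list held 14 targets of BMPs through SMAD1/5, with 12 tested. EdgeR called 1 higher and none lower, that is 8.33%, against 4.57% of all genes tested. At an unadjusted p-value under 0.05, 2 of the 12 were higher and 3 lower, against 7.61% and 8.03% of all genes tested. The median log2 fold change was -0.12. Of the 12, 7 were below 0 and 5 above, and 49.5% of all genes tested were above 0. Id4, an inhibitor of DNA binding by helix-loop-helix factors, rose from 37.1 and 69.6 normalized counts in the controls to 121 and 116 after EDA-A2. The log2 fold change of Id4 was 1.14, with a standard error of 0.25 (adjusted p = 0.0168 by edgeR). The controls differed from each other, and the value was 0.77 without control replicate 1 and 1.67 without control replicate 2. The call of Id4 was lost under 3 of 11 alternatives, among them every gene of at least 1 count kept (adjusted p = 0.245 by edgeR). Its relatives did not pass: Id2 had a log2 fold change of 0.22 (adjusted p = 0.214 by edgeR) and Id3 one of -0.27 (0.267). Nog, the BMP antagonist noggin, had -0.36, with 398 and 358 normalized counts in the controls and 282 and 306 after EDA-A2 (adjusted p = 0.115 by edgeR).

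Over the 3 lists together, 54 of 58 different genes were tested, and 2 were called higher and 1 lower (5.56%, against 4.57% of all genes). At an unadjusted p-value under 0.05, 12 were higher and 6 lower, against 7.61% and 8.03% of all genes tested, or 15.6% in either direction. The lists were drawn up with earlier results of these data known.

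**Figure D5:**
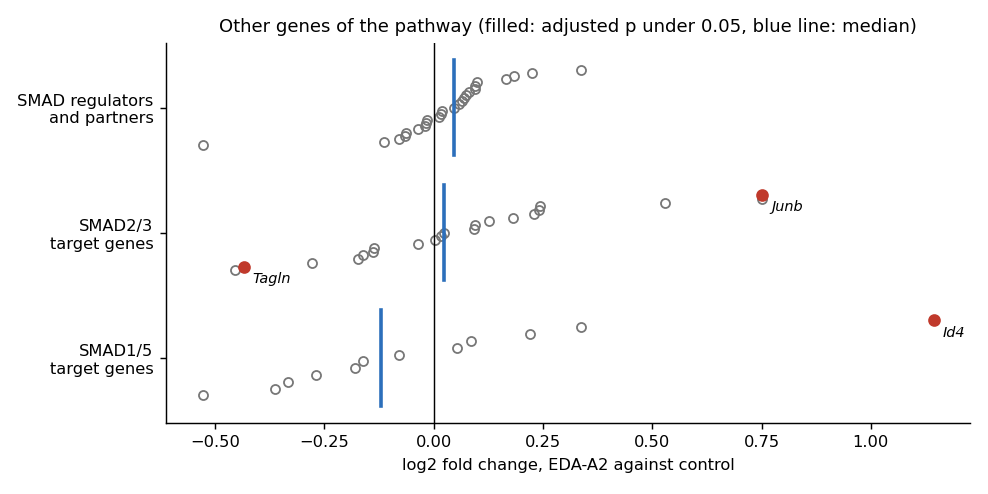
Log2 fold change after EDA-A2 (horizontal axis) of the tested genes of the 3 lists. Filled points are genes with an adjusted p-value under 0.05, open points the others, and blue lines the medians (0.05, 0.02 and -0.12). Junb and Id4 stand to the right and Tagln to the left.

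The cells were checked against marker genes. Myotube markers were abundant, with Myh3 and Mylpf the highest, and summed to 545796 and 521525 normalized counts in the controls and 389235 and 390919 after EDA-A2, with 3 of 7 called lower. Of the 4 myoblast markers 1 was called lower (Cdh15), and their sum was 8892 and 7615 in the controls and 7114 and 6767 after EDA-A2. The sum of 4 genes of dividing cells was 19378 and 23059 in the controls and 21536 and 21187 after EDA-A2. Of 6 fibroblast markers, Lum and Thy1 had no count in any library and none was called, with a sum of 414 and 474 in the controls and 527 and 493 after EDA-A2, mostly Pdgfra and Dcn. All 4 T cell markers, 4 of 5 macrophage markers, 3 of 4 endothelial markers, 2 of 3 Schwann cell markers and 1 of 3 smooth muscle markers had at most 10 counts in every library. The smooth muscle list summed to 29998 to 31092, which is Des, a gene that myotubes also express. The macrophage list summed to 61.8 and 69.6 in the controls and 89.2 and 73.7 after EDA-A2, mostly Cd68. The myotube and myoblast sums were thus below both controls in the EDA-A2 libraries, and the fibroblast and macrophage sums above both, and their part in the result of Smad7 was not tested.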

How the data were processed

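RNA of 4 libraries of mouse primary myotubes, 2 control and 2 EDA-A2, was sequenced from stranded polyadenylated libraries. The submitters' processing notes name FastQC 0.11.9, MultiQC 1.12, Trim Galore 0.6.5, STAR 2.7.3a, HTSeq 0.11.1 and the GRCm39 assembly. The authors deposited raw counts of read pairs per Ensembl gene, 1 table per library, and the annotation release and strand option are not given in the sources used here. HTSeq's summary lines (6.68% to 7.40% of pairs outside genes, 0.946% to 0.986% ambiguous, 4.56% to 4.76% not unique) stayed out of library sizes. The authors' counts hold no pair that mapped to more than 1 place.

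GENCODE M39 gave symbols to 52610 of 53647 genes, positions and exon lengths. The per-gene test was edgeR 4.0.16 under R 4.3.3 (TMM, filterByExpr with a minimum count of 10 and total of 15, glmQLFit and glmQLFTest, condition as the only term, Benjamini-Hochberg adjustment over 15173 genes, threshold 0.05). For printing, each count was divided by its library's TMM-adjusted size and multiplied by the mean of the 4 sizes. Standard errors are the fold change over the square root of F, and intervals span 2.14 standard errors. TMM factors were 0.972 to 1.026, and 3 counts, the limit that a count of 0 allows, correspond to 0.101 to 0.102 CPM (counting error only). Replicates differed by more than sampling noise (chi-square per gene 9.94 for control and 4.73 for EDA-A2). Steps were tested on simulated counts.

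The members, lists, and the rule for naming genes (all members, the 5 smallest p-values per list, up to 2 markers per list, 4 check genes) were chosen with earlier results of these data known. Alternatives were other scalings, filters and lengths, DESeq2 1.42.0, a replicate block and leaving out each library. Genes given values beyond the rule (Smurf2, Lum and Thy1) were chosen after their values were seen. One gene that the rule names is not reported here.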

Additional observations from a re-analysis of the deposited data

Results flagged for a closer look

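The share of read pairs outside annotated genes, which enters no comparison, was above both controls (6.68% each) in the EDA-A2 libraries, at 7.40% in replicate 1 and 6.84% in replicate 2.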

How the results depend on the processing

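Over 11 alternatives the log2 fold change of Smad7 lay between 0.35 and 0.46 (adjusted p from 0.00204 to 0.288, edgeR or DESeq2), and 7 of them kept its call. With every gene of at least 1 count kept (25545 tested), 64 genes were called higher and 22 lower, no member (0) and no other pathway gene (0 higher, 0 lower), and Smad7 had 0.40 (adjusted p = 0.139 by edgeR, unadjusted p-value under 0.05 for 2264 genes). Scaling to total counts gave 194 genes lower, 0 pathway genes lower, and 0.043 for Smad5. The DESeq2 Wald test gave 0 pathway genes lower (11 pathway genes in either direction at an unadjusted p-value under 0.05). Leaving out 1 library, with the lone library assumed to vary like the others, gave 0 to 238 genes higher, 0 to 170 lower, 0 to 1 member, 0 to 2 pathway genes higher and 0 to 1 lower, with 0.35 to 0.45 for Smad7, -0.055 to 0.029 for Smad5, -0.012 to 0.043 for Smad4 and -0.15 to 0.010 for Smad6. The cause was not tested. With the replicate number as a block, 537 genes were called higher and 529 lower and 5 pathway genes higher, and Smad7 had an adjusted p of 0.00204 by edgeR. Over genes, the deviations of same-number libraries from their condition means had a correlation of 0.06. With 2 libraries per condition the other pair mirrors this one. The value cannot decide whether same-number libraries share an origin, which the labels do not give. The log2 ratio of inhibitory to activating SMADs was 0.25, 0.37 with Smad7 alone, -0.10 with Smad6 alone, and 0.22 with canonical transcript length, an alternative chosen after seeing the data. With 2 libraries per condition, differences within the intervals of the activating SMADs are not excluded.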
